A study of Mus musculus with 12 samples.

Results

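Expression of 26 genes of cholesterol synthesis and its control was followed in every RNA-seq library of the series. The genes were the 18 enzymes that lead from acetyl-CoA to cholesterol and are measured here, 5 regulators of the SREBP transcription factors and 3 proteins that carry cholesterol inside the cell. They were taken by symbol from the 55487 genes of the count tables, through their Ensembl identifiers and the GRCm38 annotation. That rule used no measured value, but the list itself was chosen with earlier results of these data known. All 26 had counts in all 12 libraries. The lowest count of a gene in any library was 19, and 23 of the 26 had at least 100 counts in every library.

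Bone marrow macrophages (BMM) were compared between ovariectomized (OVX) mice, a model of bone loss after menopause, and mice with a sham operation, with 3 libraries a group. Mesenchymal stem cells of the bone marrow (MSC) were compared in 3 groups of 2 libraries each. These were MSC cultured alone, MSC co-cultured with RAW cells (MSC+RAW-TW), and MSC co-cultured with RAW cells that had been stimulated with lipopolysaccharide, a bacterial wall component (MSC+RAW-LPS-TW). RAW cells are the mouse macrophage-like line RAW264.7, and TW stands for the transwell membrane that the study's methods place between the cell layers of such co-cultures. All mice were C57BL/6 and 8 weeks old by the labels, and female by the methods. BMM were grown from leg bones with macrophage colony-stimulating factor, and MSC were the adherent marrow cells after passaging. The methods place the ovariectomy at the age that the labels give for the mice, and the time from surgery to sampling of these libraries is not given in the sources used here. No label says that libraries of a group came from separate animals or cultures, so the p-values measure the spread between these samples, which may be technical.

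Cells make cholesterol from acetyl-CoA by way of mevalonate, farnesyl diphosphate, squalene and lanosterol. The genes of this route are switched on by SREBP-2, the product of Srebf2, and SREBP-1, the product of Srebf1, also drives fatty acid synthesis. Both are made as precursors in the membrane of the endoplasmic reticulum, where SCAP escorts them to the Golgi for cleavage when sterols are low and INSIG proteins hold the complex back when sterols are high. In macrophages the pathway is known to answer to inflammatory stimuli, and in osteoclasts, which arise from the same marrow precursors, its farnesyl diphosphate step is the target of the bisphosphonate drugs used in osteoporosis.

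Library depth ran from 17012923 to 45367105 counts. Sham replicates 2 and 3, and the MSC+RAW-TW libraries A and B, differed by an amount that stayed flat from low to high counts, as sampling gives, while every other pair of a group differed more as counts rose. Each of those pairs was summed and counted as 1 sample, which left 3 OVX and 2 sham samples, and 2 MSC, 1 MSC+RAW-TW and 2 MSC+RAW-LPS-TW samples. The lone MSC+RAW-TW sample was assumed to vary like the other groups. The BMM carried macrophage markers at a summed level of 55470 to 59740 CPM (counts scaled to the library's total) in sham and 40860 to 45400 CPM in OVX libraries. The libraries labelled MSC carried the same 12 macrophage markers at 27000 to 27180 CPM when cultured alone, at 33830 to 34340 CPM with RAW cells and at 14500 to 14990 CPM with stimulated RAW cells. These sums follow Lyz2, at means of 21660, 26470 and 9588 CPM. In MSC alone Csf1r, Cd68 and Mrc1 had means of 1111, 565 and 589 CPM, against 1061, 358 and 50.3 CPM in sham. Ptprc, Cd14 and Fcgr1 were also higher than in sham. Adgre1 was lower, at 548 against 2096 CPM, as were Itgam, Spi1, Tyrobp, Aif1 and Lyz2. BMM and MSC counts were scaled separately, and no test was made. MSC is used below as the label of these libraries. The markers did not move as one, since 4 of the 12 (Adgre1, Itgam, Ptprc and Cd14) rose and 8 fell in the stimulated against the unstimulated co-culture, with Adgre1 at means of 1470 and 335 CPM. The 12 stromal markers summed to 2065 to 2156 CPM in MSC, 1714 to 1739 CPM in MSC+RAW-TW and 2586 to 2620 CPM in MSC+RAW-LPS-TW libraries, and none of the 24 markers was at 0 in every library of a group. The same stromal markers summed to 5695 to 6085 CPM in sham and 6204 to 6709 CPM in OVX libraries, of which Col1a1, Col1a2 and Cxcl12 made up most, at means of 1993, 2568 and 939 CPM in sham samples. In such bulk samples fewer cells of a type and less RNA per cell cannot be told apart, and the part of cell mixture in the values below was not tested.

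Per kilobase of exon, Npc2 was the most abundant of the 26 genes in every group. It encodes the soluble protein that binds cholesterol inside the lysosome, and its mean level was 216 CPM per kilobase in sham, 143.5 in OVX, 142 in MSC, 214 in MSC+RAW-TW and 178 in MSC+RAW-LPS-TW samples. Of the enzymes, Pmvk led in sham at 51.3 CPM per kilobase, Hmgcs1 in OVX at 37.4, and Ebp in all 3 MSC groups, at 28.1, 46.1 and 20.6 in MSC, MSC+RAW-TW and MSC+RAW-LPS-TW. Summed over the 18 enzymes, sham libraries held 1170 to 1208 CPM, OVX libraries 975 to 1121 CPM, both MSC libraries 353 CPM, MSC+RAW-TW libraries 517 to 521 CPM and MSC+RAW-LPS-TW libraries 405.5 to 449 CPM. The BMM and MSC tables were scaled separately, so no test was made between them.

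**Figure D1:**
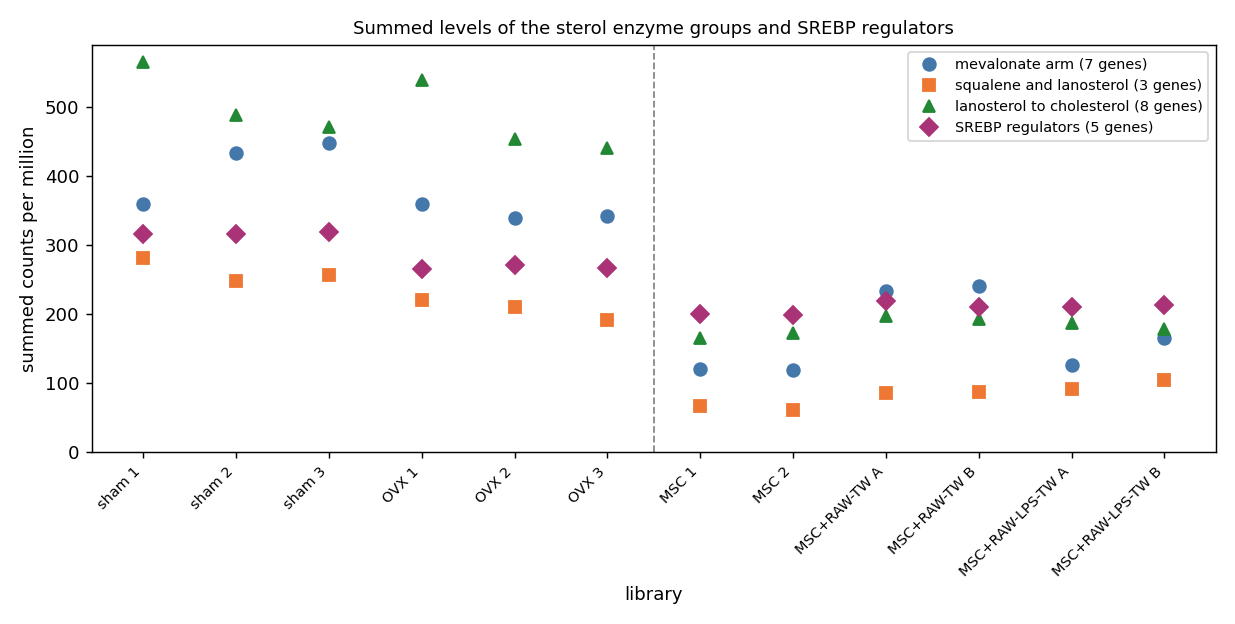
Summed level (vertical axis, CPM from 0) of the mevalonate arm, the squalene and lanosterol step, the enzymes from lanosterol to cholesterol and the SREBP regulators in each of the 12 libraries (horizontal axis), with BMM left and MSC right of the dashed line. The mevalonate arm stood at 233 to 241 CPM in the MSC+RAW-TW libraries and at 119.5 to 120.1 CPM in MSC cultured alone.

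Some of these levels are uncertain as counted. Fdps, which makes farnesyl diphosphate, was the lowest of the 26 per kilobase in sham, OVX, MSC and MSC+RAW-LPS-TW samples, and Idi1 in MSC+RAW-TW samples. Fdps had between 26 and 119 counts a library. The processed pseudogene Gm3571, which matches 1062 bases of the longest Fdps coding transcript at 98.9% identity, had between 83 and 657 counts, 3.07 to 6.11 times as many as Fdps in every library. The overlapping gene Gm43738 shares 929 bases of that transcript exactly and had at most 6 counts. Idi1, which interconverts the isoprene units that the pathway builds with, shares 684 bases without a mismatch with the pseudogene Gm13502, which had at most 4 counts. Acat2 shares 1477 bases at 97.7% identity with Acat3, which had 8 to 71 counts, and 445 bases at 98.7% with Tcp1, which had 961 to 5780 counts, where Acat2 had 516 to 3230. Fdft1 shares 774 bases with Ctsb on the opposite strand, which had 33658 to 186870 counts, and the strand setting of the counting is not given in the sources used here. Tm7sf2 shares 532 bases (12.1% of its exons) with Vps51 on the same strand. On the opposite strand Scap shares 985 bases (13.2%) with 5830462I19Rik, and Hmgcs1 557 (12.1%) with Gm48342.

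The OVX comparison asked how these genes differ in macrophages of mice without ovaries. In OVX samples Mvd, Pmvk, Tm7sf2 and Dhcr7 fell and Hmgcs1 rose, while the other 21 genes did not pass the test. Mvd, at chr8:122433601-122443422 on the minus strand of GRCm38, makes isopentenyl diphosphate, the isoprene unit that the later enzymes of the mevalonate arm build on. It measured 76.0, 90.2 and 91.4 CPM in the sham libraries and 29.7, 42.4 and 31.1 CPM in the OVX libraries. All OVX values lay below all sham values, and the fitted level was 2.44-fold lower (log2 change -1.29 ± 0.21 SE, edgeR adjusted p = 0.010). Pmvk, the phosphomevalonate kinase of the step before it, measured 66.0, 108 and 112 CPM in sham and 39.9, 46.5 and 46.5 CPM in OVX libraries. Its groups did not overlap either, and it was lower by a log2 change of -1.001 ± 0.236 (edgeR adjusted p = 0.030).

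Tm7sf2 and Dhcr7 encode reductases of the later steps, of the sterol 14 and the sterol 7 double bonds. Tm7sf2 measured 27.5, 21.9 and 20.7 CPM in sham libraries and 12.9, 12.9 and 12.7 CPM in OVX libraries, a log2 change of -0.93 ± 0.20 (edgeR adjusted p = 0.021). Dhcr7 measured 52.8, 50.6 and 57.5 CPM in sham and 30.1, 30.5 and 33.0 CPM in OVX libraries, a log2 change of -0.79 ± 0.17 (edgeR adjusted p = 0.021). For both genes every OVX library was below every sham library. Hmgcs1, the enzyme that joins acetyl-CoA units into the precursor of mevalonate, went the other way. It measured 89.8, 92.8 and 98.6 CPM in sham and 187, 153 and 176 CPM in OVX libraries, 1.84-fold higher (log2 change 0.88 ± 0.18, edgeR adjusted p = 0.021). Here all OVX libraries stood above all sham libraries. Of the 26 genes, 1 rose, against 7.25% of the 16768 genes tested, and 4 fell, against 5.83%. With a fold of at least 2 required as well, 2 fell, against 3.08% of genes tested, and 0 rose, against 5.39%. The median log2 change of the 26 was -0.42, with 19 below 0, and that of all genes tested was -0.01.

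Counted by library, 14 of the 26 lay below every sham library in all OVX libraries, against 21.0% of all genes tested, and 2 lay above, against 21.8%. Sham replicates 2 and 3 count as 1 sample, so this separation rests on fewer samples than libraries. Of the 14, 10 did not pass the test. These were Acat2, Mvk, Fdps, Fdft1, Lss, Srebf1, Srebf2, Stard4 and the Niemann-Pick genes Npc1 and Npc2, of which Lss, the cyclase that closes the sterol rings, was nearest the threshold (log2 change -0.57 ± 0.17, edgeR adjusted p = 0.057). Srebf2 measured 91.4, 84.7 and 84.2 CPM in sham and 64.3, 57.6 and 61.7 CPM in OVX libraries (log2 change -0.53 ± 0.17, edgeR adjusted p = 0.074). Srebf1 measured 76.7, 84.6 and 83.0 CPM in sham and 41.8, 54.4 and 59.0 CPM in OVX libraries (log2 change -0.64 ± 0.20, edgeR adjusted p = 0.070). Neither gene passed, though its groups did not overlap. Npc2 ranged from 1145 to 1187 CPM in sham and from 661 to 904 CPM in OVX libraries (edgeR adjusted p = 0.075). Idi1 was the only gene of the 26 besides Hmgcs1 that lay above sham in every OVX library, at 5.39, 2.91 and 2.76 CPM in sham and 9.48, 6.07 and 5.72 CPM in OVX libraries (log2 change 0.77 ± 0.36, edgeR adjusted p = 0.19). Cyp51, Msmo1, Hsd17b7 and Sc5d, all between lanosterol and cholesterol, had log2 changes between -0.08 and 0.13, and their groups overlapped.

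Of these 5 calls, Mvd was kept under all 14 alternative fits. The other 4 were kept under 10 each, and all 4 were lost when any 1 OVX library was left out, which left the call of Mvd alone. Without sham replicate 1 there were 8 calls. Of the 12 macrophage markers 6 fell and 1 rose in OVX samples, and 5 B cell markers summed to 124 to 138 CPM in sham and 61.1 to 87.9 CPM in OVX libraries. Ighm made up most of that sum, at means of 111.7 and 66.95 CPM. Of the 5 B cell markers 2 fell and 0 rose, and Ms4a1 went up without a call, from a mean of 0.44 to 0.90 CPM. The 7 neutrophil markers summed to 778 to 912 CPM in sham and 1163 to 1291 CPM in OVX libraries, and 1 of them, S100a9, rose (log2 change 0.67 ± 0.17, edgeR adjusted p = 0.041). S100a8 and S100a9 made up most of the sum, and none of the other 6 passed the test, with Mpo, Elane and Camp at log2 changes of -0.98, -0.60 and -0.25. The part of any of these in these values was not tested.

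**Figure D2:**
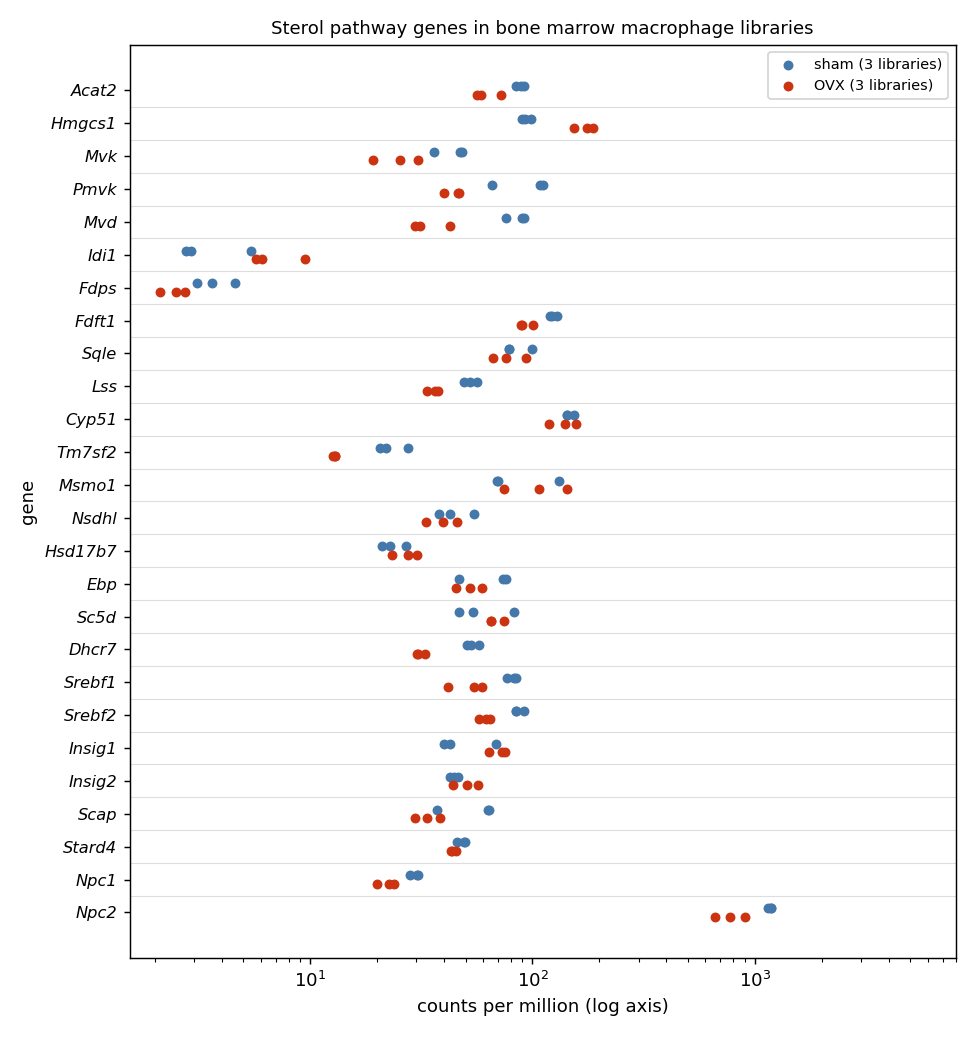
Level of each of the 26 genes (rows) in CPM on a log axis in the 3 sham and 3 OVX macrophage libraries, 1 point a library. Mvd, Pmvk, Tm7sf2 and Dhcr7 show OVX points clear to the left of sham, Hmgcs1 shows them to the right, and Sc5d, Msmo1 and Cyp51 show mixed points.

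Co-culture with unstimulated RAW cells was set against MSC alone to ask how the libraries labelled MSC differ beside RAW cells. Of the 7 genes of the mevalonate arm, Hmgcs1, Mvk, Pmvk and Mvd rose and none passed the test as lower, where 13.8% of all genes tested rose and 14.8% fell. Idi1 of the same arm measured 1.63 and 1.61 CPM in MSC and 0.46 and 0.89 CPM in MSC+RAW-TW libraries, a log2 change of -1.27 ± 0.50 that did not pass (edgeR adjusted p = 0.070), and it was called lower under 5 of the 14 alternatives. Fdft1, Ebp, Scap and Npc2 also rose, while Nsdhl, Msmo1 and Npc1 fell. Mvk, the mevalonate kinase at chr5:114444269-114460591, measured 12.9 and 11.01 CPM in MSC and 36.2 and 34.4 CPM in MSC+RAW-TW libraries, 3.02-fold higher (log2 change 1.59 ± 0.24, edgeR adjusted p = 0.00040). Mvd measured 6.54 and 7.22 CPM in MSC and 18.2 and 22.7 CPM in MSC+RAW-TW libraries (log2 change 1.59 ± 0.24, edgeR adjusted p = 0.00042). Hmgcs1 measured 63.2 and 59.5 against 117 and 118 CPM (log2 change 0.96 ± 0.18, edgeR adjusted p = 0.0016), and Pmvk 18.3 and 24.3 against 45.4 and 46.5 CPM (log2 change 1.14 ± 0.27, edgeR adjusted p = 0.0065). In all 4 genes both co-culture libraries, which count as 1 sample, were above both MSC libraries. How many of all genes tested did so was not counted.

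Nsdhl, on the X chromosome at chrX:72918557-72958514, encodes the dehydrogenase that takes part in removing the methyl groups of lanosterol. It measured 16.5 and 19.1 CPM in MSC and 5.82 and 6.27 CPM in MSC+RAW-TW libraries, 2.90-fold lower (log2 change -1.53 ± 0.27, edgeR adjusted p = 0.00089). Msmo1, the oxidase that acts on the same methyl groups, measured 14.7 and 21.5 against 10.7 and 10.2 CPM (log2 change -0.75 ± 0.26, edgeR adjusted p = 0.040). Npc1, the membrane protein that passes cholesterol out of the lysosome, measured 138 and 122 against 73.3 and 71.8 CPM (log2 change -0.81 ± 0.19, edgeR adjusted p = 0.0054), while its soluble partner Npc2 measured 780 and 770 against 1179 and 1151 CPM (log2 change 0.62 ± 0.18, edgeR adjusted p = 0.018). The 2 partners thus moved in opposite directions. Fdft1, squalene synthase, had a log2 change of 0.92 ± 0.23, Ebp, the sterol isomerase, of 0.74 ± 0.18, and Scap of 0.70 ± 0.19, each with an edgeR adjusted p of at most 0.013. In total 8 genes rose, against 13.8% of the 20499 genes tested, and 3 fell, against 14.8%. With a fold of at least 2 as well, 3 rose, against 6.80% of genes tested, and 1 fell, against 9.59%. Mvk, Mvd, Hmgcs1 and Nsdhl were kept under all 14 alternatives. Of the 12 macrophage markers 5 rose and 4 fell in this comparison, and their part in these changes was not tested.

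MSC+RAW-LPS-TW, below the stimulated co-culture, was set against MSC+RAW-TW, the unstimulated co-culture, to ask what lipopolysaccharide adds. This comparison had the most calls, 15 of 26, in both directions. The enzymes Idi1, Sqle, Msmo1, Nsdhl, Hsd17b7 and Sc5d, both INSIG genes and Stard4 rose, while the enzymes Hmgcs1, Mvk, Pmvk, Ebp and Dhcr7 and the escort Scap fell. Of the 26 genes, 9 rose, against 21.3% of the 20499 genes tested, and 6 fell, against 18.9%. At a fold of at least 2, 6 rose, against 15.4% of genes tested, and 5 fell, against 12%. Macrophage markers moved too, with 4 of 12 higher and 8 lower. The median log2 change was -0.02 over the 26 and 0.14 over all genes tested.

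The promoters of the genes that rose together are shown as the place where SREBP and its partner factors are known to act. Of the 26 genes, 21 matched a RefSeq window of 300 bases (250 before and 50 after the start site, GRCm38.p6), and Fdps, Fdft1, Sqle, Stard4 and Npc1 did not. The windows were searched on both strands for the sterol regulatory element forms CACCCCAC and TCACNCCAC, which overlap where N is C, the NF-Y box CCAAT and the E-box CACGTG. Those of the 6 genes with a window that rose most in the stimulated co-culture are printed 5′ to 3′ in order of their change, with each match in capitals (CCAAT, or ATTGG where it lies on the other strand, and CACGTG).
Idi1 (chr13:8885356-8885655, plus strand): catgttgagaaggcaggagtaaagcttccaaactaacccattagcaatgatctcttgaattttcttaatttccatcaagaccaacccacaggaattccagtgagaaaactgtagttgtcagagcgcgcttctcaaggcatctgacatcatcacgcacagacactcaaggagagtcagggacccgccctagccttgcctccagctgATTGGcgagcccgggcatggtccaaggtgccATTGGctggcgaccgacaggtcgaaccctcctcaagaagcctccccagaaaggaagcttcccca
Hsd17b7 (chr1:169969156-169969455, minus strand): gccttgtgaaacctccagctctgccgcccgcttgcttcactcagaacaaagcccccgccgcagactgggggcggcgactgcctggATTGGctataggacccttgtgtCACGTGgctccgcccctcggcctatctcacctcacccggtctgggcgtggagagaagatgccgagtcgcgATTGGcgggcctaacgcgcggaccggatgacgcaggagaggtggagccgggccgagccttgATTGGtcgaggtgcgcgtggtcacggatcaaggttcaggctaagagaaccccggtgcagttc
Nsdhl (chrX:72918271-72918570, plus strand): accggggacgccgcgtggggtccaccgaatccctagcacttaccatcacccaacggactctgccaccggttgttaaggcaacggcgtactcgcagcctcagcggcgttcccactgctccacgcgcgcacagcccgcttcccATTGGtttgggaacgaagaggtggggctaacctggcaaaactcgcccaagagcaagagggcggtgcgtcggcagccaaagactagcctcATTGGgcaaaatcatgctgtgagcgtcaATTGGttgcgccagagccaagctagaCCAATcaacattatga
Insig1 (chr5:28071162-28071461, plus strand): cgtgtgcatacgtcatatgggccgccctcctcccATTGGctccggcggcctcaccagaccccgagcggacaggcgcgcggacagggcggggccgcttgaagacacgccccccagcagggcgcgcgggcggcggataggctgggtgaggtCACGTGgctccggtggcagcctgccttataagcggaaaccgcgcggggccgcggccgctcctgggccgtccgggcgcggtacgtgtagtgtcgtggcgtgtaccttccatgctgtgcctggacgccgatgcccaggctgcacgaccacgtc
Sc5d (chr9:42264251-42264550, minus strand): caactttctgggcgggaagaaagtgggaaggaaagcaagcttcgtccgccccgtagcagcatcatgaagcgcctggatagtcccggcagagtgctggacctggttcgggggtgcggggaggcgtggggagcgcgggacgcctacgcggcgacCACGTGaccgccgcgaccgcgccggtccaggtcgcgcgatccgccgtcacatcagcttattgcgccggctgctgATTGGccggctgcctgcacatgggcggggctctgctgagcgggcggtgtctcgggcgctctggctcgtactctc
Insig2 (chr1:121332540-121332839, minus strand): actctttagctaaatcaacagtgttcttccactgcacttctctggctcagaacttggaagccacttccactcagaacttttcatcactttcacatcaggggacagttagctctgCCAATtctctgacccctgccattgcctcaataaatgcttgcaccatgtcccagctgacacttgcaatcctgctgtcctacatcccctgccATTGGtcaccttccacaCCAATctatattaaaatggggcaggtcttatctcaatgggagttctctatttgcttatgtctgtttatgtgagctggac

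None of these 6 windows held either form of the sterol regulatory element. Over all 21 genes, Acat2 and Hmgcs1 held one, 9.52%, against 4.09% of the 27025 genes with a window. The NF-Y box, whose factor is known to act beside SREBP, was in a window of 19 of the 21 (90.5%), against 41.1% of all genes, and Acat2 and Scap lacked it. Hsd17b7 held it at positions -165 to -161, -73 to -69 and -12 to -8 from the start site, and Idi1 at -45 to -41 and -14 to -10. The E-box was in 5 of the 21 (23.8%), against 8.09% of all genes. In the stimulated against the unstimulated co-culture the NF-Y box was in 7 of the 7 genes with a window that rose and in 5 of the 6 that fell. For Insig2, which has 3 windows, the one listed first is printed, and the other 2 held no NF-Y box.

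Idi1, at chr13:8885501-8892451, had the widest change of the 26. It measured 0.46 and 0.89 CPM in MSC+RAW-TW, from 19 and 31 counts, and 4.26 and 3.19 CPM in MSC+RAW-LPS-TW libraries, 5.51-fold higher (log2 change 2.46 ± 0.52, edgeR adjusted p = 0.0015). Hsd17b7, at chr1:169949535-169969241, encodes the sterol ketone reductase of the demethylation steps. It measured 5.11 and 4.49 CPM with unstimulated and 17.7 and 19.4 CPM with stimulated RAW cells, 3.76-fold higher (log2 change 1.91 ± 0.31, edgeR adjusted p = 0.00019). Nsdhl rose from 5.82 and 6.27 to 21.8 and 16.1 CPM, 3.08-fold (log2 change 1.62 ± 0.27, edgeR adjusted p = 0.00021). In all 3 both stimulated libraries stood above both unstimulated ones, which count as 1 sample. The share of all genes tested that did so was not counted. Sc5d, the desaturase near the end of the route, measured 14.3 and 13.8 against 40.8 and 29.7 CPM (log2 change 1.30 ± 0.28, edgeR adjusted p = 0.0017). Msmo1 measured 10.7 and 10.2 against 20.5 and 20.1 CPM (log2 change 0.92 ± 0.26, edgeR adjusted p = 0.010). Sqle, squalene epoxidase, a rate-limiting oxygenation, measured 16.8 and 16.5 against 34.9 and 23.7 CPM, with a log2 change of 0.79 ± 0.26 (edgeR adjusted p = 0.023).

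The regulators split. Insig1, the INSIG protein that is itself a target of SREBP, measured 7.22 and 7.77 CPM with unstimulated and 18.8 and 18.9 CPM with stimulated RAW cells, 2.47-fold higher (log2 change 1.30 ± 0.25, edgeR adjusted p = 0.00080). Insig2, the second form, measured 14.4 and 12.6 against 26.6 and 31.1 CPM (log2 change 1.06 ± 0.25, edgeR adjusted p = 0.0032). Both INSIG genes lay above the unstimulated libraries without overlap, while Scap, their binding partner, lay below. How common such separation was among all genes tested was not counted. Scap measured 53.9 and 53.0 against 26.6 and 23.7 CPM (log2 change -1.12 ± 0.19, edgeR adjusted p = 0.00026). Srebf1 and Srebf2 overlapped between the groups, at 65.5 to 66.8 against 58.6 to 65.8 CPM and at 71.1 to 76.2 against 74.1 to 80.3 CPM, with log2 changes of -0.12 ± 0.18 and 0.03 ± 0.18. Stard4, a soluble carrier of cholesterol between membranes, measured 12.03 and 10.3 against 24.5 and 18.5 CPM (log2 change 0.91 ± 0.25, edgeR adjusted p = 0.0089).

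Among the genes that fell, Ebp, at chrX:8185329-8193512, varied least within each pair. It measured 107 and 106 CPM with unstimulated and 47.9 and 47.2 CPM with stimulated RAW cells, 2.29-fold lower (log2 change -1.20 ± 0.17, edgeR adjusted p = 7.2e-05). Pmvk measured 45.4 and 46.5 against 11.4 and 20.4 CPM (log2 change -1.57 ± 0.27, edgeR adjusted p = 0.00034), and Mvk 36.2 and 34.4 against 12.3 and 18.2 CPM (log2 change -1.24 ± 0.24, edgeR adjusted p = 0.00083). These kinases act one after the other on mevalonate. Dhcr7, whose reduction gives cholesterol itself in one branch of the route, measured 27.4 and 25.3 against 9.13 and 13.8 CPM (log2 change -1.24 ± 0.26, edgeR adjusted p = 0.0013). Hmgcs1 measured 117 and 118 against 63.5 and 76.9 CPM (log2 change -0.77 ± 0.18, edgeR adjusted p = 0.0036). Of the 15, 11 were kept under all 14 alternative fits, and Sqle, Msmo1, Sc5d and Stard4 under 13 each.

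**Figure D3:**
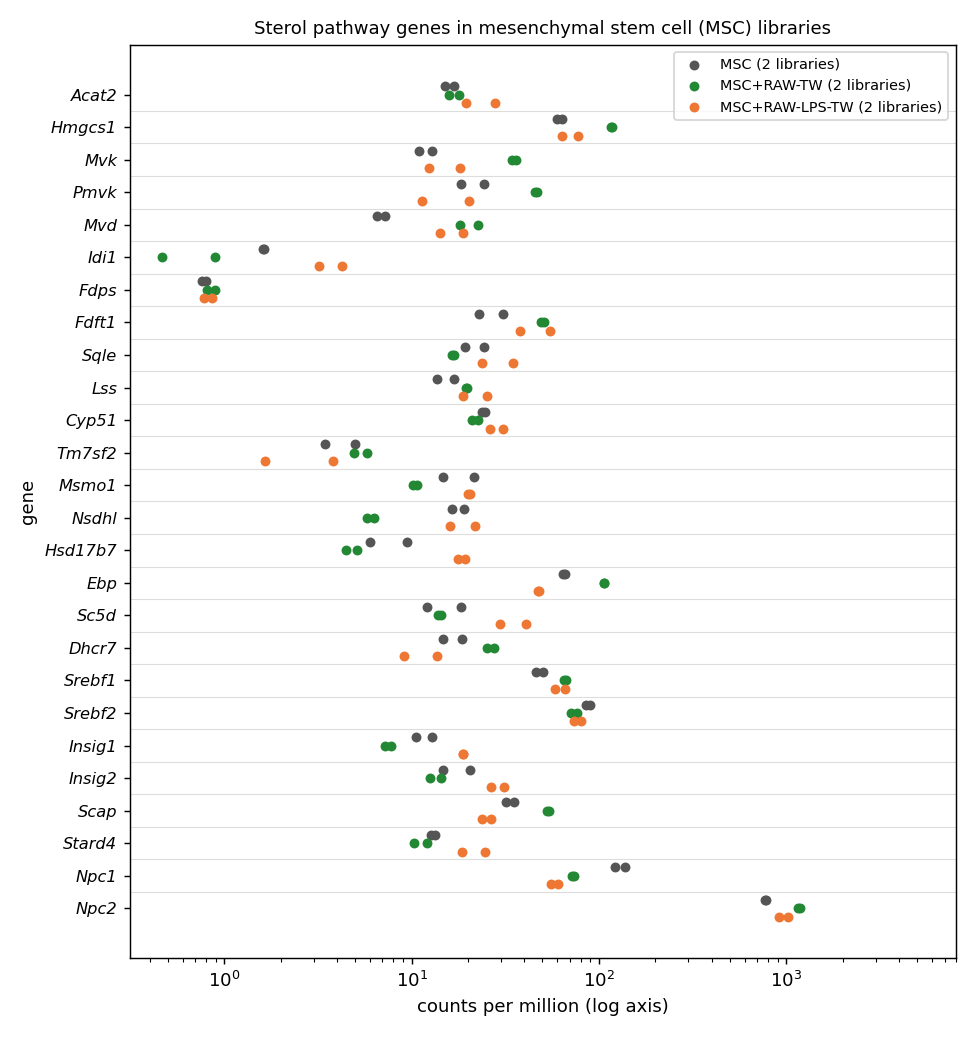
Level of each of the 26 genes (rows) in CPM on a log axis in the 2 libraries each of MSC, MSC+RAW-TW and MSC+RAW-LPS-TW, 1 point a library. The MSC+RAW-TW points lie lowest for Idi1, Nsdhl and Hsd17b7 and highest for Mvk, Pmvk, Ebp and Scap.

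Stimulated co-culture was also set against MSC alone. The 3 MSC comparisons share their samples, so their values are given side by side and no overlap between them was counted. Here Mvd, Idi1, Fdft1, Hsd17b7, Sc5d, Insig1, Insig2 and Stard4 rose, and Ebp and Npc1 fell. Mvd measured 6.54 and 7.22 CPM in MSC and 14.2 and 18.8 CPM in MSC+RAW-LPS-TW libraries, 2.40-fold higher (log2 change 1.26 ± 0.21, edgeR adjusted p = 0.00039). Hsd17b7 measured 6.03 and 9.51 against 17.7 and 19.4 CPM (log2 change 1.26 ± 0.24, edgeR adjusted p = 0.0011), and Sc5d 18.4 and 12.03 against 40.8 and 29.7 CPM (log2 change 1.21 ± 0.22, edgeR adjusted p = 0.00076). Idi1 measured 1.63 and 1.61 against 4.26 and 3.19 CPM (log2 change 1.20 ± 0.38, edgeR adjusted p = 0.037). In each of these 4 genes both stimulated libraries exceeded both MSC libraries, and the share of all genes tested that did so was not counted. Insig1 had a log2 change of 0.68 ± 0.20, Insig2 of 0.71 ± 0.20, Stard4 of 0.72 ± 0.20 and Fdft1 of 0.79 ± 0.20, each with an edgeR adjusted p of at most 0.022.

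Npc1 fell further than Ebp. It measured 138 and 122 CPM in MSC and 60.2 and 55.8 CPM in MSC+RAW-LPS-TW libraries, 2.25-fold lower (log2 change -1.17 ± 0.15, edgeR adjusted p = 3.4e-05), and was kept under all 14 alternatives, as were Mvd, Hsd17b7 and Sc5d. Ebp measured 64.0 and 66.0 against 47.9 and 47.2 CPM, a log2 change of -0.45 ± 0.15 (edgeR adjusted p = 0.040). In all, 8 genes rose, against 11.1% of the 20499 genes tested, and 2 fell, against 9.85%. At a fold of at least 2, 4 rose, against 5.85% of genes tested, and 1 fell, against 5.09%. The median log2 change of the 26 was 0.33, with 19 above 0, and that of all genes tested was -0.01. Leaving out MSC replicate 1 left 6 calls and leaving out MSC replicate 2 left 5. Of the 7 neutrophil markers, S100a8 carried most of the sum of 370 to 557 CPM in the stimulated libraries, at a mean of 429 CPM, with Camp at 34.2 CPM, while 4 of the 7 had at most 3 counts. The sum was 11.7 to 16.4 CPM in MSC and 31.7 to 34.7 CPM in MSC+RAW-TW libraries. Of the 12 macrophage markers 2 rose and 6 fell in MSC+RAW-LPS-TW against MSC, and of the 12 stromal markers 4 rose and 1 fell. The part of any of these markers in the values above was not tested.

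**Figure D4:**
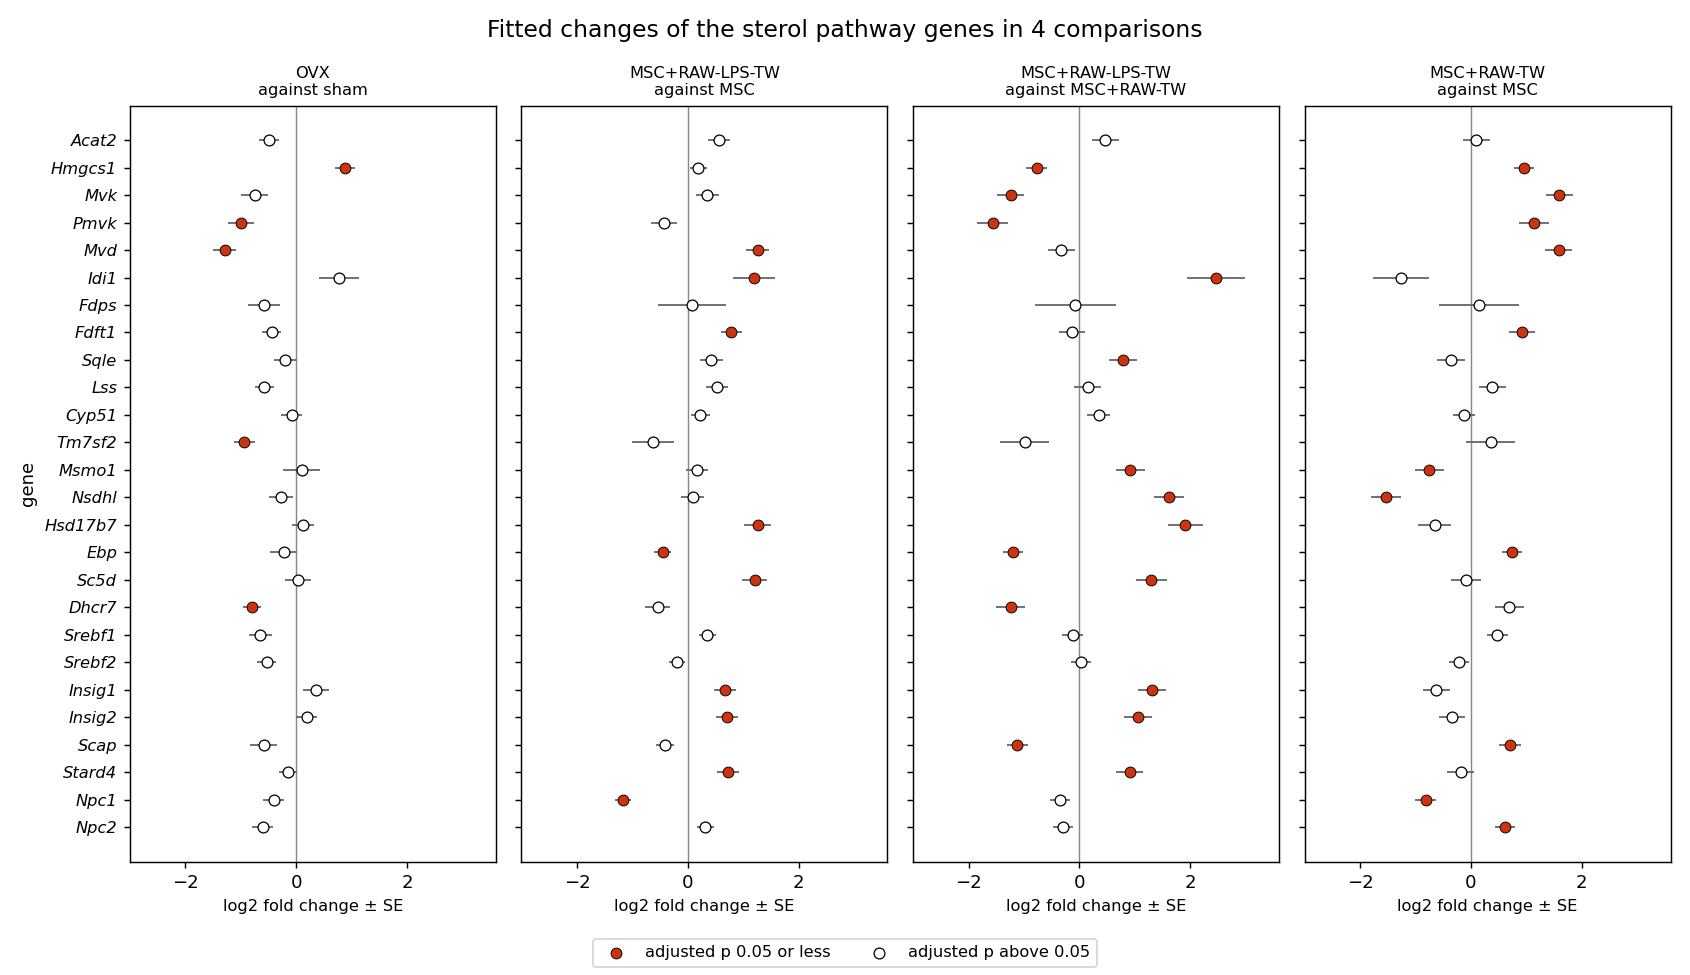
Fitted log2 fold change (horizontal axis, bars are standard errors) of the 26 genes (rows) in the 4 comparisons, filled where the edgeR adjusted p was 0.05 or less. Filled points number 5, 10, 15 and 11 from left to right, and in the third panel, the stimulated against the unstimulated co-culture, they lie on both sides of 0.

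Across all 4 comparisons, with TMM scaling, 20 of the 26 genes were called at least once, against 61.0% of the 16239 genes tested in both experiments, and Acat2, Fdps, Lss, Cyp51, Srebf1 and Srebf2 never were. Cyp51, the lanosterol demethylase, measured 23.9 and 24.8, 22.7 and 20.9, and 26.1 and 30.9 CPM in MSC, MSC+RAW-TW and MSC+RAW-LPS-TW. Srebf2 spanned 85.7 to 90.1, 71.1 to 76.2 and 74.1 to 80.3 CPM in the same order. A p above the threshold does not show that these genes did not differ.

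The changes went with the base composition of the genes. The GC content, taken from the longest transcript of each gene, ran from 41.9% in Idi1 to 59.1% in Scap. Over the 26 genes, which share the same libraries, GC content and log2 change had a Spearman's rho of -0.85 for OVX against sham, -0.68 for stimulated against unstimulated co-culture, 0.66 for MSC+RAW-TW against MSC and -0.31 for MSC+RAW-LPS-TW against MSC. In the stimulated against the unstimulated co-culture the 12 genes with at least 50% GC had a median log2 change of -0.66, and the 14 others of 0.91. Once trends with GC content and length over all genes had been removed from each sample, rho was -0.18, -0.41, 0.31 and -0.33 in the same order, and these medians were -0.40 and 0.59.

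With the trends removed, Mvd and Tm7sf2 stayed lower in OVX samples (log2 changes -0.84 and -0.79), and Lss and Npc1 were called as well, while Hmgcs1, Pmvk and Dhcr7 were lost, with log2 changes of 0.39, -0.57 and -0.55 (edgeR adjusted p = 0.22, 0.11 and 0.0503). The split of these calls was then 0 higher and 4 lower, where it had been 1 and 4. In the stimulated against the unstimulated co-culture it was 7 and 7, where it had been 9 and 6, and 12 of the 15 calls were kept, with Srebf2 higher and Npc1 lower in addition. Idi1 (1.80), Hsd17b7 (1.36), Nsdhl (1.32), Insig1 (1.24), Insig2 (0.78) and Sqle (0.66) stayed higher on the log2 scale, and Msmo1, Sc5d and Stard4 were lost, at 0.42, 0.65 and 0.34 (edgeR adjusted p = 0.19, 0.075 and 0.24). Hmgcs1, a low-GC gene that fell, went further down, from -0.77 to -1.37. In MSC+RAW-TW against MSC 7 of 11 calls were kept, and Pmvk, Msmo1, Scap and Npc1 were lost, at log2 changes of 0.64, -0.26, 0.15 and -0.33 (edgeR adjusted p = 0.099, 0.46, 0.58 and 0.18), while Srebf2 was gained at -0.72 (edgeR adjusted p = 0.013). In MSC+RAW-LPS-TW against MSC 9 of 10 calls were kept, and Ebp was lost at -0.36, from -0.45 before (edgeR adjusted p = 0.081), while Acat2 (0.66) and Scap (-0.49) were gained (edgeR adjusted p = 0.027 and 0.039).

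**Figure D5:**
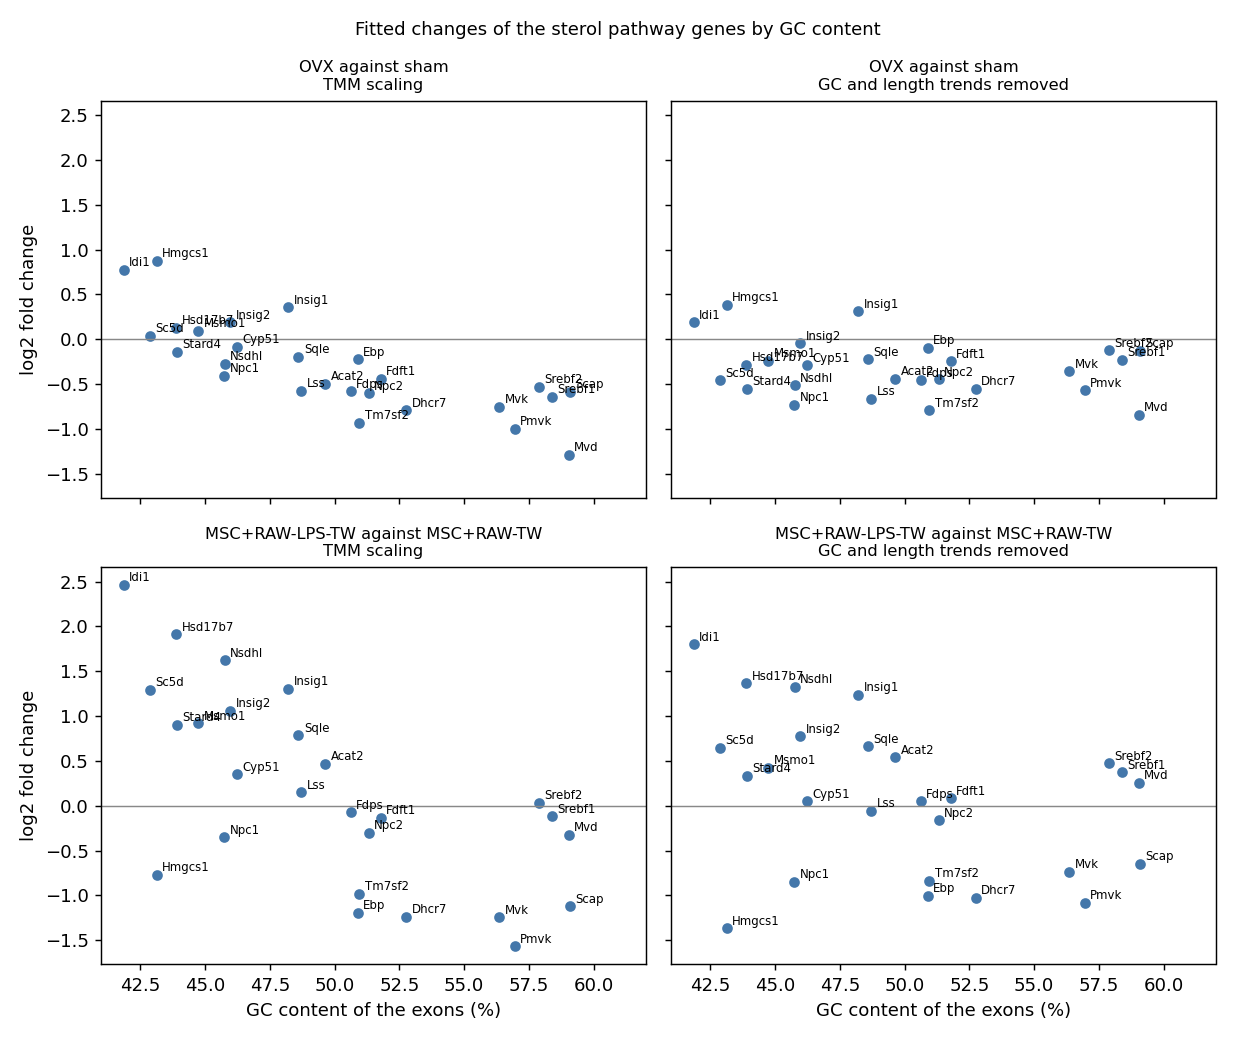
Log2 fold change (vertical axis) of the 26 genes against the GC content of their longest transcript (horizontal axis, percent, labelled as exons). Rows show OVX against sham (top) and the stimulated against the unstimulated co-culture (bottom). Columns show TMM scaling (left) and values after the trends with GC content and length were removed (right). The slope seen at left, rho -0.85 and -0.68, is shallower at right, rho -0.18 and -0.41, and Idi1, Hsd17b7, Nsdhl and Insig1 stay above 1 at lower right.

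Genes around the pathway were counted from lists chosen by role, and each change named here had an edgeR adjusted p of at most 0.05. Of 9 genes that cleave SREBP or turn over INSIG, 6 rose and 0 fell in the stimulated against the unstimulated co-culture, where 21.3% of all genes tested rose and 18.9% fell. Rnf139 (1.55 ± 0.32) and Rnf145 (1.20 ± 0.20), which encode ubiquitin ligases of the endoplasmic reticulum, and Pgrmc1 (0.91 ± 0.26), which encodes a membrane heme protein, rose most. Pgrmc1 is counted among the 9 by its place on the list, and neither role is shown for it here. Rnf139 fell in MSC+RAW-TW against MSC (-1.10 ± 0.31), as did Ufd1 (-0.85 ± 0.19), a cofactor in the extraction of proteins from the membrane, and 0 of the 9 rose, against 14.8% of all genes tested lower and 13.8% higher. In MSC+RAW-LPS-TW against MSC 2 rose, Rnf145 (0.81 ± 0.15) and Pgrmc1 (0.64 ± 0.21), and 0 fell, against 11.1% and 9.85% of all genes tested. In OVX samples Pgrmc1 rose (1.01 ± 0.23) and the other 8 were not called, a count of 1 of 9 where 7.25% of all genes tested rose.

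Of 12 genes of fatty acid synthesis and desaturation, 1 rose and 2 fell in OVX samples, where 7.25% of all genes tested rose and 5.83% fell. Elovl6, an elongase of fatty acids, rose (log2 change 1.40 ± 0.20), and the acetyl-CoA synthetase Acss2 (-1.19 ± 0.26) and the fatty acid synthase Fasn (-0.87 ± 0.18) fell. In the stimulated against the unstimulated co-culture 5 rose and 3 fell (all genes tested, 21.3% and 18.9%), with the stearoyl-CoA desaturases Scd2 (1.92 ± 0.22) and Scd1 (1.41 ± 0.21) up and Mid1ip1, an activator of acetyl-CoA carboxylase, down (-1.70 ± 0.20). Against MSC, Scd2 rose (1.52 ± 0.17), and Mid1ip1 (-0.82 ± 0.17) and the desaturase Fads1 (-0.72 ± 0.15) were among 3 that fell (all genes tested, 11.1% higher and 9.85% lower). In MSC+RAW-TW against MSC 2 rose and 3 fell (all genes tested, 13.8% and 14.8%), with Scd1 (-1.29 ± 0.21) and the elongase Elovl5 (-1.04 ± 0.25) down and Mid1ip1 up (0.88 ± 0.20).

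Of 10 genes of the oxysterol receptors LXR, cholesterol export, esterification and oxysterol synthesis, 2 fell in OVX samples and 0 rose, against the same shares of all genes tested as for fatty acid synthesis, here and in the MSC comparisons. Nr1h3, which encodes LXR alpha, fell 3.21-fold (log2 change -1.68 ± 0.21) and the exporter Abcg1 fell 2.14-fold (-1.10 ± 0.17). In MSC+RAW-LPS-TW 3 rose and 4 fell against MSC, and 5 rose and 4 fell against MSC+RAW-TW. Against MSC, Cyp27a1 (-3.35 ± 0.29), a mitochondrial oxysterol-making enzyme, and Nceh1 (-2.94 ± 0.17), a cholesteryl ester hydrolase, fell, and Ch25h (1.83 ± 0.21), which makes the oxysterol 25-hydroxycholesterol, rose. Against MSC+RAW-TW, Cyp27a1 fell (-2.99 ± 0.31) and the exporter Abca1 (2.17 ± 0.21) and Ch25h (2.12 ± 0.27) rose. In MSC+RAW-TW against MSC 2 rose and 3 fell, with Soat1, which esterifies cholesterol, at -1.30 ± 0.21, Nceh1 at -0.97 ± 0.20 and Nr1h3 at 0.89 ± 0.21.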

How the data were processed

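RNA-seq was measured in 12 libraries of 5 groups. The study's methods describe paired-end libraries from poly(A) RNA and a strand-marking kit. The authors trimmed reads with Trim Galore 0.6.7, mapped them to GRCm38 with HISAT2 2.1.0 and counted them per Ensembl gene with featureCounts 2.0.1. The authors deposited unnormalized counts for each gene, 1 column a library, and the strand setting is not given in the sources used here. Counts from 1 to 20 were even in 60.0% to 71.4% of cases in each library, so counts are not single independent molecules. Columns of the MSC+RAW-TW and MSC+RAW-LPS-TW libraries show the group but no number that matches a sample, so these libraries are called A and B.

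The 26 genes and the gene lists were chosen with earlier results of these data known. CPM were scaled by TMM within each experiment, and CPM per kilobase used the exon length deposited with the counts. Groups were compared by the quasi-likelihood F-test of edgeR 4.0.16 (R 4.3.3) after filterByExpr and TMM, with 1 fit for BMM (16768 genes, 3 residual degrees of freedom) and 1 for all MSC groups (20499 genes, 2 residual degrees of freedom). Genes with an adjusted p (Benjamini-Hochberg, all genes tested) at or below 0.05 were called. Standard errors were taken as the absolute log2 change divided by the square root of F. GC and length trends were fitted per sample by lowess (span 0.3) on log2 CPM with a prior count of 2. Libraries of a group were compared by chi-square over genes whose counts in both libraries summed to 20 or more, and the ratio to sampling was 2.50 at low and 2.81 at high counts for sham 2 and 3, and 3.08 and 3.26 for MSC+RAW-TW A and B, while at high counts every other pair reached at least 18.5. Copies were searched with blastn 2.17.0 (at least 300 bases at 90% identity) in GENCODE transcripts of GRCm38. All 26 genes are named, and of each neighbouring list at most the 3 called genes with the largest change in a comparison. A list of further sterol and isoprenoid enzymes is not reported here. DESeq2 1.42.0 and other settings were run as alternatives. Same-numbered OVX and sham libraries deviated together with correlations of 0.41, -0.03 and 0.35, so the numbers were not taken as pairs.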

Additional observations from a re-analysis of the deposited data

How the results depend on the processing

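In OVX against sham, where 5 genes were called, 12 were called with every library as a replicate, 10 with DESeq2, 10 with every library as a replicate and the library code series as a block (chosen after seeing the data), 2 with a fold of at least 2, and 1 to 8 when 1 library was left out. Same-numbered libraries shared only a number, and the replicate block gave 16 calls, 3 higher and 13 lower. In MSC+RAW-LPS-TW against MSC, where 10 were called, a fold of at least 2 gave 5 and leaving out 1 library gave 5 to 14. In MSC+RAW-TW against MSC, where 11 were called, a fold of at least 2 gave 4 and leaving out 1 library gave 8 to 15. In the stimulated against the unstimulated co-culture, where 15 were called, all alternatives gave 11 to 19. No call of any of the 26 genes changed its direction under these alternatives. No paired analysis was possible by replicate number for the MSC groups because their columns carry no matching numbers. The MSC columns fall into 2 library code series, and with these as a block, every library a replicate, MSC+RAW-LPS-TW against MSC had 14 calls, MSC+RAW-TW against MSC 16 and the stimulated against the unstimulated co-culture 19, as many as without the block. Removing the GC and length trends moved the median log2 change of all genes from 0.14 to 0.02 in the stimulated against the unstimulated co-culture and from -0.13 to 0.00 in MSC+RAW-TW against MSC. Depth limits Fdps and Idi1, whose counts in the MSC libraries fell to 26 and 19.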
